A study of Homo sapiens with 6 samples.

Results

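The genes described here are 9 KRAB zinc finger genes of the early embryo that are linked to young retroelements: ZNF91, ZNF90, ZNF98, ZNF534, ZNF600, ZNF675, ZNF676, ZNF728 and ZNF729. They were taken by symbol from a count table of 53712 genes, and all 9 were found in it. The libraries come from H9, an established human embryonic stem cell line grown in PXGL, a medium for the naive state. The control group received 25 nM of a sense LINE-1 oligonucleotide (SO-L1) and the other group 25 nM of the antisense one (ASO-L1), with 3 libraries of poly(A) RNA in each at 48 hours. Cells of both groups were also given trans-ISRIB (0.7 uM), emricasan (5 uM) and the ROCK inhibitor Y-27632 (10 uM), which were taken off at 24 hours, and cells were not sorted. All libraries are from 1 cell line, and the labels do not say whether replicates were separate cultures. The p-values thus set the difference between groups against the spread of these libraries only, and that spread may be technical.

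KRAB zinc finger proteins bind DNA through an array of zinc fingers, and many of them bind transposable elements. Their KRAB domain recruits TRIM28 (KAP1), which brings in the histone H3K9 methyltransferase SETDB1, HP1 proteins and, in embryonic cells, DNA methylation. The family expanded in clusters on chromosome 19, where ZNF91 and relatives lie in band p12 and ZNF534 and ZNF600 in band q13.41. ZNF91 represses SVA elements, composite retrotransposons of apes that move with the LINE-1 machinery. ZNF534 has been linked to the endogenous retrovirus HERV-H, and ZNF676 to LTR12, the promoter of HERV9. ZNF675 is also known as TIZ, an inhibitor of TRAF6 signalling.

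The members resemble each other in sequence, which bears on how reads can be told apart. A coding stretch of the KRAB box is shown for the 5 members with enough counts to be tested and for ZNF98, from GENCODE release 29 transcripts, with capitals where a base differs from ZNF91.
ZNF91: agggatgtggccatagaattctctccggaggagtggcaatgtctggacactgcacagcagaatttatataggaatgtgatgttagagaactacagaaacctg
ZNF90: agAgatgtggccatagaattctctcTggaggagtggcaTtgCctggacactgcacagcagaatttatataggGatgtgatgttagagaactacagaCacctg
ZNF98: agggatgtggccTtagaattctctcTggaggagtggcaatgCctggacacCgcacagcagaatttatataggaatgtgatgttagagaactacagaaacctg
ZNF675: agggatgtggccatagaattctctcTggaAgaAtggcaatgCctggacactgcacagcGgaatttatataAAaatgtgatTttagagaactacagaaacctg
ZNF534: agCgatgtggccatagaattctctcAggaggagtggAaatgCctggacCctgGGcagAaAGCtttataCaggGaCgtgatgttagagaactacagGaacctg
ZNF600: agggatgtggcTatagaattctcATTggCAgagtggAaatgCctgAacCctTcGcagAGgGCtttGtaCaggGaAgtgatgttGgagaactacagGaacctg
ZNF98 differed from ZNF91 at 4 bases, ZNF90 at 6 and ZNF675 at 8, against 15 for ZNF534 and 22 for ZNF600. Identity of the coding sequences was taken over aligned bases only, with gaps and unaligned ends left out. ZNF91, with 3573 coding bases, was 81% identical to ZNF90 over 1803 aligned bases and 66.7% to ZNF600 over 2300. The closest pair of the 9 was ZNF676 and ZNF728, at 89% over 1857. The number of zinc fingers, counted in frame as codons of the cysteine and histidine pairs, ran from 11 in ZNF675 to 31 in ZNF91 and 34 in ZNF729.

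Stretches that occur exactly in other genes were counted next, since reads from them have more than 1 possible source. ZNF98 stood apart, with 41% of its 50-base stretches also present in transcripts of other genes, mostly ZNF492, and 23.7% of its 100-base stretches. For ZNF91 the shares were 3.15% and 0%, for ZNF675 2.13% and 0%, and ZNF534 shared no stretch of either length. ZNF600 shared 10% and 1.5%, mostly with ZNF611. ZNF90 shared 11.4% and 6.69%, mostly with AC011447.1, a gene annotated over its own exons, and AC006539.1 and AC011447.3 overlap its exons on the opposite strand. Read length, the counting by strand and the treatment of reads with several matches are not stated in the labels or files, so the counts of ZNF90, ZNF98 and ZNF600 are the least certain on this point.

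**Figure D1:**
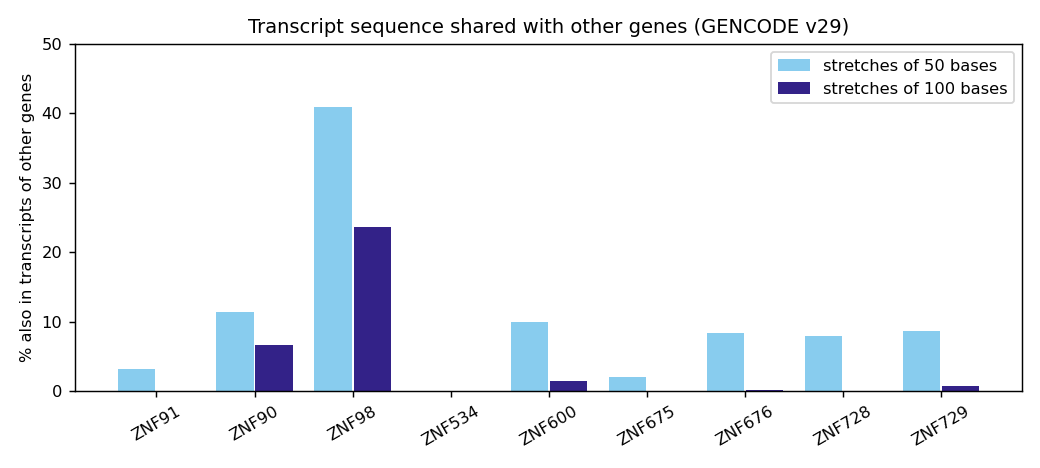
Share of each member's distinct transcript stretches of 50 bases (light bars) and 100 bases (dark bars) that also occur in transcripts of other genes, in percent, over GENCODE release 29. ZNF98 has the tallest bars, at 41% and 23.7%, and ZNF534 has none.

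Only 5 of the 9 genes had enough reads to be tested: ZNF91, ZNF90, ZNF534, ZNF600 and ZNF675. Levels are given as CPM, read counts scaled to library size with TMM factors. One member, ZNF91, was called higher after ASO-L1 by edgeR's quasi-likelihood test at a Benjamini-Hochberg adjusted p under 0.05, and none was called lower. Across the 16873 genes tested, 33.7% were called in either direction, 18% higher and 15.7% lower, so 1 of 5 (20%) is near the background and is no result about the members. All changes were small, with fitted folds from 0.728 for ZNF534 to 1.23 for ZNF90. The RNA is from bulk cells, in which fewer cells of a type and less RNA per cell cannot be told apart.

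ZNF91, the SVA repressor, was at 47.7, 49.6 and 50 CPM in SO-L1 replicates 1 to 3 and at 58.8, 57.6 and 55.6 CPM in ASO-L1. Every ASO-L1 library was above every SO-L1 library; the means ± SD were 49.1 ± 1.25 and 57.3 ± 1.62 CPM (n = 3). The log2 fold change was 0.22 ± 0.07 (SE), a 16.8% increase, with an adjusted p of 0.0285 and a 95% interval of 0.07 to 0.37. The increase was thus larger than the spread between libraries, but the call did not hold in several fits with fewer libraries. Dropping 1 library ended it for SO-L1 replicate 1 (adjusted p = 0.0988), 2 (0.0544) or 3 (0.0834) and for ASO-L1 replicate 1 (0.0878). In these fits, in that order, 18.6%, 30.3%, 17.5% and 25.9% of all tested genes were called, against 33.7% with all libraries. Dropping replicate 1 (0.234) or 3 (0.144) of both groups ended it too, in fits that called 6.95% and 16.9% of all tested genes. Upper-quartile scaling (0.0618) and no filter on low counts (0.0854) also ended it, in fits that called 34% and 18.3% of all tested genes. The log2 fold change stayed between 0.18 and 0.26 in all 16 alternatives.

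ZNF90 was at 55.9, 73.2 and 58.8 CPM in SO-L1 and at 75.2, 84.6 and 71.4 CPM in ASO-L1. Replicate 2 was the highest library of each group, and SO-L1 replicate 2 lay above ASO-L1 replicate 3, so the groups overlapped. Replicate 2 also stood apart over all genes, where a chi-square over genes, divided by its degrees of freedom, gave 10.3 and 11.2 against the other libraries of SO-L1 and 17 and 22.1 against those of ASO-L1, with 5.9 and 1.97 between replicates 1 and 3. The log2 fold change of 0.30 ± 0.11 missed the threshold (adjusted p = 0.0528, 95% interval 0.06 to 0.54). Within replicate numbers the log2 difference was 0.43, 0.21 and 0.28, above 0 in each. With the replicate number as a block ZNF90 passed (adjusted p = 0.00145), and with that block 45.7% of all tested genes were called. It also passed with DESeq2 (0.0376), limma-voom (0.0483) and no filter (0.00612), where 32.2%, 33.7% and 18.3% of all tested genes were called. Dropping SO-L1 replicate 2 (0.0121) or ASO-L1 replicate 3 (0.0442) gave a call too, with 30.3% and 31% of all tested genes called. So did dropping replicate 2 of both groups (8.03e-06), a fit in which 41.7% of all tested genes were called.

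ZNF675 had the most counts of the members, with 93.7, 109 and 90.3 CPM in SO-L1 and 95.6, 96.8 and 88.9 CPM in ASO-L1. The groups overlapped, and SO-L1 replicate 2 was the highest library. The log2 fold change was -0.06 ± 0.08 (adjusted p = 0.614), with a 95% interval of -0.23 to 0.12. Without SO-L1 replicate 2 it was above 0, at 0.02 ± 0.07.

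The 2 members of band q13.41 had lower values after ASO-L1 without passing the test. ZNF534, the least abundant of the tested members, had 64, 67 and 67 reads in SO-L1 and 50, 36 and 44 in ASO-L1, which is 2.05, 2.73 and 2.19 against 2.06, 1.58 and 1.43 CPM. Replicate 1 was nearly the same in both groups, while replicates 2 and 3 were lower in ASO-L1 by 0.79 and 0.61 on the log2 scale (values of -0.79 and -0.61). The fitted value was -0.46 ± 0.22 (adjusted p = 0.131), with a 95% interval of -0.94 to 0.03. ZNF600 was at 38.1, 39.8 and 38.8 CPM in SO-L1 and at 37.4, 36.1 and 32.9 CPM in ASO-L1, so the groups did not overlap. Its log2 fold change was -0.13 ± 0.08 (adjusted p = 0.205), with a 95% interval of -0.31 to 0.04. Among the tested members, libraries of the groups were apart for 2 of 5, ZNF91 and ZNF600, against 50.9% of all tested genes. Neither ZNF534 nor ZNF600 was called in any of the 16 alternatives.

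**Figure D2:**
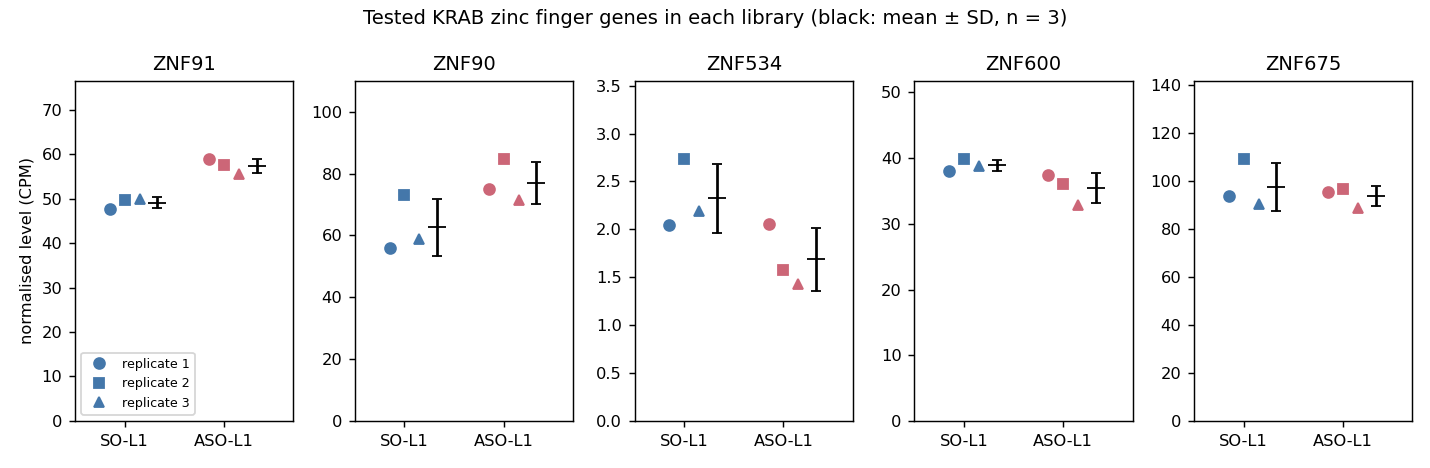
Normalised level in CPM of the 5 tested members in each library, with SO-L1 in blue and ASO-L1 in red, symbols for the replicate number, and the mean ± SD of 3 libraries in black. ZNF91 lies between 47.7 and 50 CPM in SO-L1 and between 55.6 and 58.8 CPM in ASO-L1, while replicate 2 of SO-L1 is the highest control library for ZNF90, ZNF534, ZNF600 and ZNF675.

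The other 4 members had few reads or none in 3 libraries per group. ZNF728 had 11, 4 and 5 reads in SO-L1 and 11, 5 and 6 in ASO-L1, with replicate 1 the highest in each. Its summed counts of 20 and 22 gave a ratio of ASO-L1 to SO-L1 of 1.19, with an exact 95% interval of 0.622 to 2.31 that covers counting error only. ZNF676 had 4, 2 and 3 reads in SO-L1 and 1, 2 and 2 in ASO-L1, and the ratio of the sums of 9 and 5 was 0.603 (0.159 to 2). ZNF729 had 1 read in SO-L1 and 2 in ASO-L1, all in replicate 1, too few for a ratio. No difference was detectable for these genes at this depth. ZNF98 had no read in any library, which was read as a level of at most 3 counts over the 6 libraries together (0.0182 CPM, a floor for counting error only) and depends on how reads shared with ZNF492 were assigned. ZNF492 had 26, 8 and 15 reads in SO-L1 and 5, 4 and 16 in ASO-L1 (log2 fold change -0.83 ± 0.51, adjusted p = 0.228). Of the summed CPM of the members, ZNF675, ZNF90 and ZNF91 together gave 82.9% to 84.4% in SO-L1 libraries and 85.2% to 86.3% in ASO-L1 libraries. ZNF600 was also well counted, with 6100 reads over all libraries. These shares are not scaled to transcript length.

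Levels of different genes can be set side by side only per length, here CPM per kilobase of annotated exons. In SO-L1 ZNF675 was highest at 14.4 ± 1.42 (SD, n = 3), followed by ZNF90 at 12.5 ± 1.85. ZNF675 was above ZNF90 in each SO-L1 library, and replicate 2 was the highest of them for both genes. ZNF600 (5.59 ± 0.125) and ZNF91 (4.72 ± 0.120) came next, and ZNF534 was far lower at 0.708 ± 0.109. In ASO-L1 both neighbouring pairs stood in the opposite order, with ZNF90 at 15.4 ± 1.36 and ZNF675 at 13.8 ± 0.622, then ZNF91 at 5.52 ± 0.156 and ZNF600 at 5.09 ± 0.332. Lengths are from GENCODE release 29, which may differ from the annotation the reads were counted on, and these differences between genes were not tested.

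The authors' deposited table of the same comparison lists 6 of the 9 genes, and none has an adjusted p under 0.05, against 4493 of the 20964 genes in it. For ZNF91 the authors' deposited table gives a log2 fold change of 0.21 and an adjusted p of 0.0836, and for ZNF90 0.29 and 0.0769. ZNF728 is at 0.32 with an adjusted p of 0.648 in the authors' deposited table. In the authors' batch-corrected log2 values ZNF90 was at 5.92, 5.98 and 6.00 in SO-L1 and 6.32, 6.23 and 6.25 in ASO-L1. ZNF91 was at 5.60, 5.60 and 5.68 in SO-L1 and at 5.87, 5.84 and 5.80 in ASO-L1 on that scale. The groups did not overlap there for 5 of the 6 members listed, ZNF675 among them, and for 61.8% of the 20335 genes of that table, so this is nothing particular to ZNF90.

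The upstream sequence of 4 members was on hand, from RefSeq on GRCh38.p14, and is shown because 3 of the sequences are alike. Each sequence is the 250 bases before the annotated start, with CCAAT, or its reverse complement ATTGG, in capitals.
ZNF91 (chr19:23395472-23395721, minus strand): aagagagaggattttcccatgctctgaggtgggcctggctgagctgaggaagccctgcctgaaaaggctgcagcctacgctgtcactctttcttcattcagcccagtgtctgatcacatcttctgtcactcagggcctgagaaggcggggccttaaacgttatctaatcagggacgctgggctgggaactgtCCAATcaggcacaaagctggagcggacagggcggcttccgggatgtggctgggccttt
ZNF90 (chr19:20077750-20077999, plus strand): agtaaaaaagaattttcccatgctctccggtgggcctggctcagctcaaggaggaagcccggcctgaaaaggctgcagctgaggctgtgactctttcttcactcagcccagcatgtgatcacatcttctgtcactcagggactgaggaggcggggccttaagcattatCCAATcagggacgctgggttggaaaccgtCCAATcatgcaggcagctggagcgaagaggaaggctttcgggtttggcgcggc
ZNF675 (chr19:23687213-23687462, minus strand): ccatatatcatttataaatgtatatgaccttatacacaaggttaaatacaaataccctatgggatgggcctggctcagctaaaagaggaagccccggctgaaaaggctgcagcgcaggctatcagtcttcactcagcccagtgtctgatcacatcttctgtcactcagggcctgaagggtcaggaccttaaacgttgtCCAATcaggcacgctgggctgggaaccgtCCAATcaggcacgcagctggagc
ZNF534 (chr19:52428898-52429147, plus strand): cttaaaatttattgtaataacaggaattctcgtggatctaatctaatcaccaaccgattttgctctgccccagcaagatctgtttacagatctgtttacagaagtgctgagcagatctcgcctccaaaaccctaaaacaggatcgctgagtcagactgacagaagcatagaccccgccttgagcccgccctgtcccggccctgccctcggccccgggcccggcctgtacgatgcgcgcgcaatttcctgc
The upstream sequences of ZNF91 and ZNF90 were 86% identical over 243 aligned bases, and those of ZNF91 and ZNF675 86.1% over 202. ZNF534 aligned with ZNF91 over no more than 20 bases. The word CCAATCAGG, noticed in these sequences and then counted on both strands, was in the windows of ZNF91, ZNF90 and ZNF675 and in 1.11% of 35116 promoter windows of 300 bases. CCAAT alone, which that word contains, was in 34.6% of them. The windows of the 4 genes hold the 250 bases shown and further bases past the annotated start. The EGR motif GCGTGGGCG (0.795% of all windows) and the CRE TGACGTCA (1.85%) were in none of the 4, nor was the E-box CACGTG (7.26%). The AP-1 motif TGAGTCA (4.95%) was in the window of ZNF534, and the ETS motif CCGGAAG (10.3%) in those of ZNF91, ZNF675 and ZNF534. The ETS match of ZNF91 lies in the upstream bases shown, while those of ZNF675 and ZNF534 lie outside them. TATAAA (11.5%) was in the window of ZNF675. These are matches of letters on both strands and say nothing of binding. The 3 alike sequences lie before genes with log2 fold changes of 0.22 for ZNF91, 0.30 for ZNF90 and -0.06 for ZNF675, and the differences between these were not tested.

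The 5 tested members differed in how they varied over the 6 libraries. ZNF534 and ZNF600, both in band q13.41, had a Pearson r of 0.93 in log2 CPM, and ZNF91 and ZNF90 of 0.80. Between these pairs r was negative, from -0.59 for ZNF91 and ZNF534 to -0.31 for ZNF90 and ZNF534. Among 66 other members and neighbouring zinc finger genes, the one most like ZNF91 was ZNF331 (r = 0.968), and the one most like ZNF90 was ZNF43 (0.976). ZNF737 was most like ZNF534 (0.960), ZNF534 most like ZNF600 (0.930) and ZNF611 most like ZNF675 (0.953). After the group means were taken out, r was 0.966 for ZNF90 with ZNF43 and 0.953 for ZNF675 with ZNF611, but 0.387 for ZNF91 with ZNF331. These values describe 6 libraries that share depth, replicate and group, and each of the 5 nearest genes was picked as the highest of 66. The values within groups are for those same pairs.

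Zinc finger genes around the members moved in both directions. In the list of 31 genes near band p12, 25 were tested, 3 rose and 5 fell, and the median log2 fold change was -0.01. ZNF486 fell from 96.4 ± 4.71 to 62.2 ± 5.27 CPM (log2 fold change -0.63 ± 0.08, adjusted p = 0.00143) and ZNF66 from 16.2 ± 1.88 to 8.48 ± 1.52 CPM (-0.93 ± 0.14). ZNF626 fell too (-0.79 ± 0.14). ZNF738 rose from 36.0 ± 3.51 to 51.3 ± 1.23 CPM (0.51 ± 0.09, adjusted p = 0.00280), and ZNF724P by 0.42 ± 0.10. In the list of 38 genes near band q13.41, 37 were tested, 6 rose and 5 fell, with a median of -0.03. ZNF665 rose from 3.56 ± 0.770 to 6.37 ± 1.17 CPM (0.85 ± 0.19, adjusted p = 0.00878), ZNF331 by 0.42 ± 0.07 and ZNF808 by 0.41 ± 0.10. ZNF841 fell from 28.2 ± 3.64 to 16.8 ± 1.94 CPM (-0.75 ± 0.12, adjusted p = 0.00253), and ZNF347 by 0.80 on the log2 scale (a value of -0.80 ± 0.15). ZNF347, ZNF486, ZNF66 and ZNF841 were called in all 16 alternatives.

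The shares called were 32% near p12 and 29.7% near q13.41, close to the 33.7% of all tested genes, whose median was -0.01. All other genes with ZNF and a number as symbol, which include most of these neighbours, had 133 higher and 42 lower of 444 tested, a median of 0.13. That is 39.4% called, 30% higher and 9.46% lower, beside 18% higher and 15.7% lower of all tested genes. Without replicate 1 of both groups, where 6.95% of all tested genes were called, the calls were 0 higher and 2 lower in each of the lists near p12 and q13.41, and 30 and 7 of the other ZNF-named genes. Without replicate 2 of both groups (41.7% of all genes called) they were 5 higher and 4 lower near p12, 9 and 7 near q13.41, and 170 and 49 among the other ZNF-named genes. Without replicate 3 of both groups (16.9%) they were 2 higher and 3 lower near p12, 3 and 2 near q13.41, and 73 and 21 among the other ZNF-named genes. With SO-L1 replicate 1 (18.6% of all genes called) or SO-L1 replicate 3 (17.5%) left out, 1 was higher and 3 were lower near p12, and 2 and 2 near q13.41. Of the other ZNF-named genes, 68 were then higher and 28 lower for replicate 1, and 72 and 28 for replicate 3. Leaving out ASO-L1 replicate 1 (25.9% of all genes called) gave 3 higher and 3 lower near p12, and 5 and 2 near q13.41. Leaving out ASO-L1 replicate 2 (27.9%) gave 3 higher and 3 lower near p12, and 5 and 4 near q13.41. ZNF724P and ZNF808 lost their calls when SO-L1 replicate 1 or 3 was dropped, and ZNF665 when SO-L1 replicate 1 was. Without replicate 1 of both groups these genes and ZNF626, ZNF738 and ZNF331 were not called, nor was ZNF665 without replicate 3 of both. With the replicate block (45.7% of all genes called) the calls were 5 higher and 7 lower near p12, and 9 and 7 near q13.41.

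**Figure D3:**
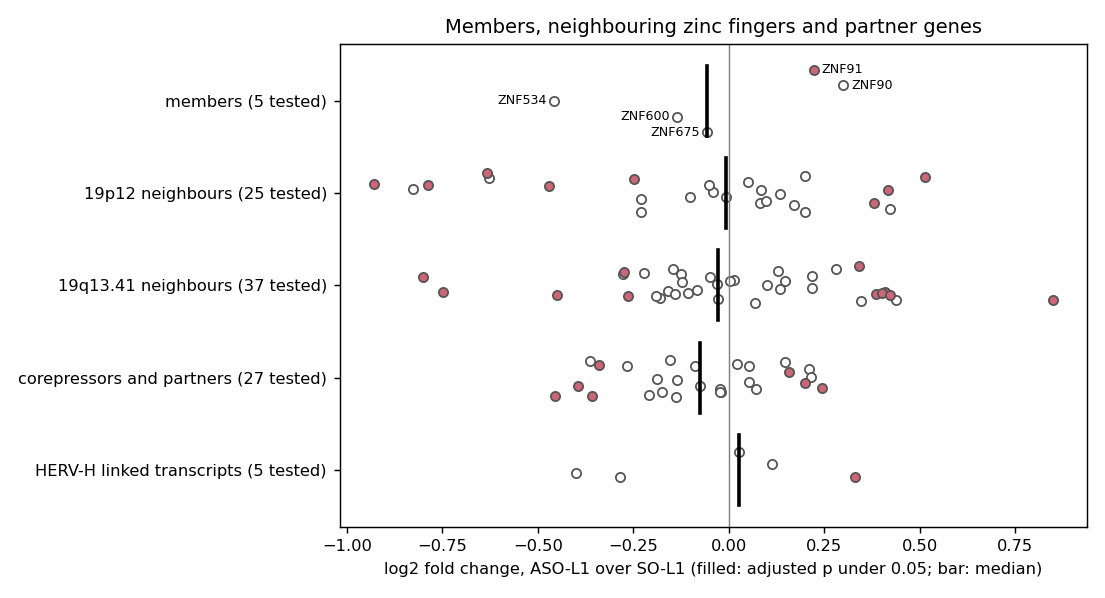
Log2 fold change of ASO-L1 over SO-L1 for each tested gene of 5 lists, with filled points for genes with an adjusted p under 0.05 and a black bar at the median. The members lie between -0.46 and 0.30, inside the range of the neighbouring zinc finger genes, which reach -0.93 for ZNF66 and 0.85 for ZNF665.

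In a list of 27 genes, corepressors of KRAB zinc fingers, their relatives and partners, all were tested, 3 rose and 4 fell. This is a share of 25.9% called, below the 33.7% of all genes, with a median log2 fold change of -0.08. The list also holds ZFP57 and ZNF274, zinc finger genes that were not called. The 3 that rose were TRIM28, CHAF1A (0.20 ± 0.06, adjusted p = 0.029), a subunit of the histone chaperone CAF-1, and DNMT3A (0.158 ± 0.055, adjusted p = 0.0489), a DNA methyltransferase. None of these increases passed with upper-quartile factors. TRIM28 went from 1410, 1272 and 1371 CPM in SO-L1 to 1525, 1713 and 1563 CPM in ASO-L1 (log2 fold change 0.24 ± 0.07, adjusted p = 0.0217), with all ASO-L1 libraries above all SO-L1 libraries. The call of TRIM28 also ended without SO-L1 replicate 2 or 3, and without replicate 1 or 3 of both groups, with adjusted p-values up to 0.115. TRIM24 and TRIM33, relatives of TRIM28, fell from 312 ± 15.6 to 227 ± 27.6 CPM (-0.46 ± 0.09, adjusted p = 0.00442) and from 134 ± 2.94 to 102 ± 9.29 CPM (-0.39 ± 0.07, adjusted p = 0.00431). CBX5, which encodes HP1 alpha, fell from 350 ± 18.7 to 273 ± 21 CPM (-0.36 ± 0.07), and FAM208A, the HUSH subunit TASOR, from 61.1 ± 3.32 to 48.3 ± 2.51 CPM (-0.34 ± 0.08). With the replicate block 5 of the 27 were higher and 9 lower, beside 45.7% of all genes called. Leaving out SO-L1 replicate 2 (30.3% of all genes called) or SO-L1 replicate 3 (17.5%) left no increase and 4 decreases. With SO-L1 replicate 1 left out (18.6%) 1 increase and 4 decreases were called, and with ASO-L1 replicate 3 left out (31%) 1 and 5. Without replicate 1 of both groups (6.95% of all genes called) 1 decrease (CBX5) and no increase was called, so TRIM24, TRIM33 and FAM208A were lost there. Without replicate 3 of both groups (16.9% of all genes called) 2 decreases and no increase were called, and CBX5 (adjusted p = 0.0597) and FAM208A (0.0901) were lost. With replicate 2 of both left out (41.7% of all genes called) 6 were higher and 7 lower.

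Transcripts that start in or hold HERV-H sequence, the element family linked to ZNF534, had values on both sides of 0. ABHD12B rose from 82.3 ± 2.58 to 104 ± 8.28 CPM (log2 fold change 0.33 ± 0.07, adjusted p = 0.00779), a call lost without replicate 1 of both groups (0.0703). HHLA1 was at 86.3 ± 9.09 and 65.4 ± 12.7 CPM (-0.40 ± 0.14, adjusted p = 0.0546), with no overlap between groups. HHLA1 passed in 8 of 16 alternatives, among them the replicate block (0.000256), DESeq2 (0.0161), limma-voom (0.0397), upper-quartile factors (0.0449) and no filter (2.28e-05). LINC-ROR (-0.29 ± 0.15), LINC00458 (0.11 ± 0.33) and ESRG (0.03 ± 0.10), a lncRNA of pluripotent cells at 1320 ± 174 CPM in SO-L1, did not pass. Of the 6 written, 5 were tested and 1 rose, which is 20% beside the 18% of all genes called higher. With the replicate block, where 45.7% of all genes were called, ABHD12B was higher and HHLA1 and LINC-ROR (0.0339) were lower. The table has gene symbols only, so levels of SVA, HERV-H or LTR12 elements themselves are not analysed here.

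**Figure D4:**
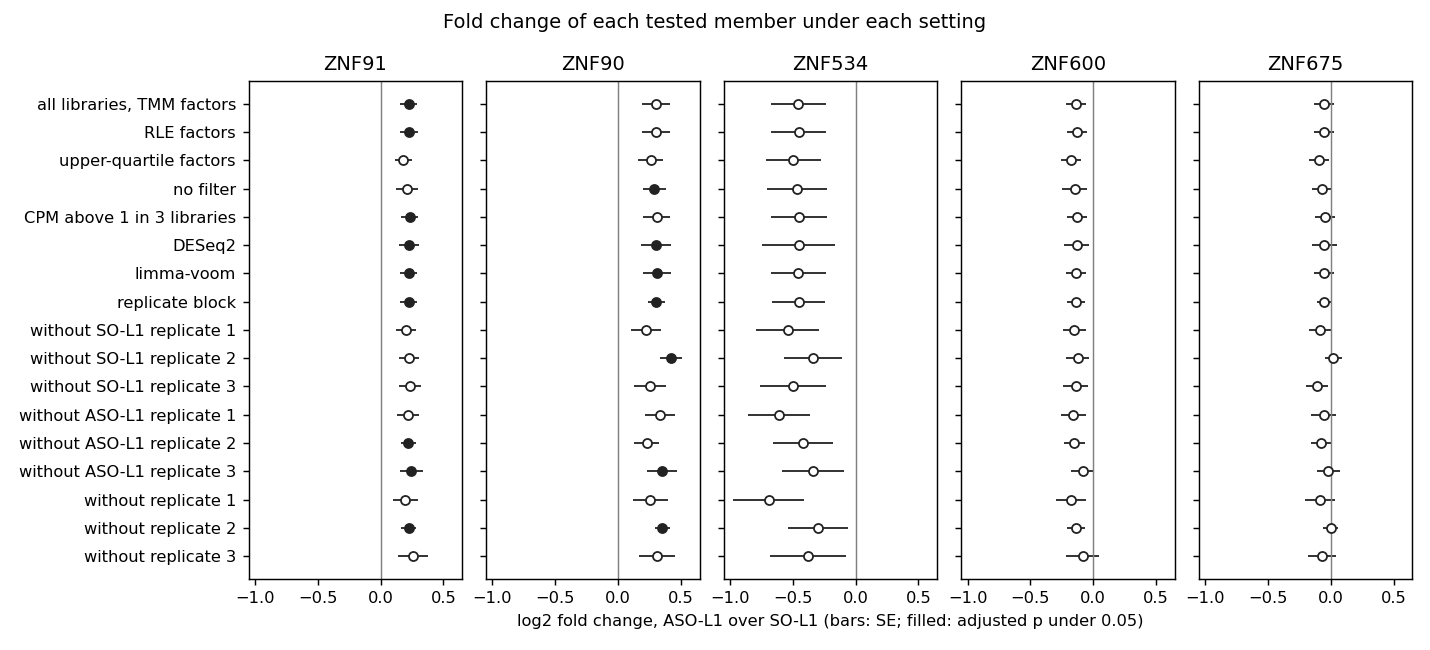
Log2 fold change ± SE of the 5 tested members with all libraries and under 16 alternatives, filled where the adjusted p is under 0.05. ZNF91 and ZNF90 lie above 0 in every row and pass in some, while ZNF534 and ZNF600 lie below 0 and pass in none.

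Library totals ran from 23330875 to 31164287 counts. All 6 core pluripotency markers were tested and none was called, with summed levels of 3894 to 4249 CPM in SO-L1 and 3345 to 3892 CPM in ASO-L1. The counts that follow stand beside 18% of all tested genes called higher and 15.7% lower. Of 14 tested naive markers 2 were higher and 5 lower (sums 1188 to 1279 and 1103 to 1181 CPM). KLF17, a defining naive marker, was between 0.263 and 0.936 CPM, and ARGFX between 0 and 0.196 CPM. The other naive markers lay higher, from 6.84 CPM (the lowest library of DPPA3) to 711 CPM (the highest of DPPA4). Primed markers had 4 of 8 higher (581 to 602 and 760 to 839 CPM), and a fibroblast or mesenchymal list 4 of 8 higher (522 to 594 and 650 to 780 CPM). Trophectoderm markers had 2 of 8 higher (302 to 321 and 337 to 380 CPM), primitive endoderm 3 of 7 (111 to 120 and 113 to 116 CPM) and 8-cell markers 2 of 9 (22.1 to 29.2 and 26 to 33.2 CPM, with DUX4 at 0). None of the primed, mesenchymal, trophectoderm, primitive endoderm and 8-cell markers was called lower, and the part of these shifts in the values of the zinc finger genes was not tested.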

How the data were processed

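Poly(A) RNA of 6 H9 libraries was sequenced, and the deposited table gives raw counts by gene symbol; its name says that duplicates were removed. Per the submitters' processing notes, tools included Subread 1.5.0 with featureCounts, TopHat2 2.0.13 and Trim Galore 0.4.0, with hg19 as the build. The authors' deposited table of the comparison gives log2 fold changes, p-values and adjusted p-values, and a further deposited table gives log2 values corrected for batch by the authors. The models, the annotation and the strand setting were not stated.

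The filterByExpr filter (edgeR 4.0.16, minimum count 10, minimum total 15) left 16873 of 53712. ASO-L1 was compared with SO-L1 by the edgeR quasi-likelihood test (TMM factors, robust, two-sided, Benjamini-Hochberg over all tested genes, calls at an adjusted p under 0.05). Standard errors are the unshrunken log2 fold change over the square root of F, and correlations use log2 CPM with a prior count of 2. The common biological coefficient of variation was 10.2%. An exact permutation test of 3 against 3 cannot go below 0.1 and was not used. Alternatives were RLE and upper-quartile factors, 2 other filters, DESeq2 1.42.0, limma-voom (limma 3.58.1), the replicate block, and leaving out libraries. Only the replicate block took each replicate number to pair the groups, and the main comparison used no pairing. Deviations from the group means correlated by 0.102, 0.377 and 0.211 for numbers 1, 2 and 3. For numbers 1 and 3 crossed pairs correlated by 0.156 and 0.162, so the pairing is clear for number 2 only. The fit was tested on simulated data.

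Sequences are from GENCODE release 29 transcripts and from RefSeq promoters of GRCh38.p14, in which 4 of the 9 genes were matched. No coordinate of these builds was joined to the hg19 counts. The members and lists were chosen with earlier results of these data known. All 9 members are named, with up to 5 genes of the smallest p in each list and the most similar zinc finger gene of each tested member. ZNF492, which shares most stretches with ZNF98, and CHAF1A and DNMT3A fall outside this rule and were added after their values were seen.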

Additional observations from a re-analysis of the deposited data

How the results depend on the processing

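The number of members called higher was 1 with all libraries, and with no filter that 1 was ZNF90 in place of ZNF91. The fit with no filter tested 8 members and called 18.3% of 33437 genes, against 33.7% in the main fit. The number of members called higher was 0 with upper-quartile factors (34% of all tested genes called). It was 2 with DESeq2 (32.2%), limma-voom (33.7%) and the replicate block (45.7%). With libraries left out it was 0 to 2, in fits that called 6.95% to 41.7% of all tested genes. No member was called lower in any of the 16 alternatives. The number of all genes called ran from 1183 to 7197 with libraries left out, against 5684. The fits with 1 replicate number left out of both groups have 2 libraries a group. The value of ZNF675 crossed 0 with libraries left out (-0.111 to 0.021), as did those of ESRG (-0.063 to 0.129, and -0.014 with upper-quartile factors) and LINC00458 (-0.106 to 0.431), none of which was called. The cause was not tested. ZNF91 was called in 8 of 16 alternatives and ZNF90 in 7. Depth limits ZNF98, ZNF676, ZNF728 and ZNF729.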
